A study of Mus musculus with 4 samples.

Results

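Dividing cells among lineage-labelled alveolar cells were described in 4 single-cell RNA-seq libraries of mouse lung. A cell was called cycling when at least 4 of the 9 cell cycle genes Ube2c, Cdc20, Birc5, Cdk1, Cenpa, Top2a, Mki67, Cdca3 and Hist1h2ap had a count in it and fewer than 3 of the leukocyte genes Tyrobp, Fcer1g and Laptm5 did, among cells with 500 or more genes and at most 20% mitochondrial counts. The cells were thus chosen by their counts of these 12 genes. In all, 157 of 10756 cells (1.46%) were cycling, and 115 of them (73.2%) came from 1 library; 13 further cells of 12-month bleomycin, 1 of 12-month PBS and 1 of 3-month bleomycin met the cell cycle criterion but showed all 3 leukocyte genes. Each library held alveolar type 2 (AT2) cells of 3 pooled Sftpc-creER;Rosa26-mTmG mice. There the Sftpc promoter drives a tamoxifen-dependent Cre, so that cells that used it, and their descendants, turn green; tamoxifen was given to every group. The groups were 12-month-old mice taken at day 30 after intratracheal bleomycin at 0.8 U/kg, 12-month-old mice given PBS and sampled at day 0, and the same pair at 3 months of age. Green cells negative for CD45 and CD31 were sorted and run on a 10x Genomics 3' kit, which counts unique molecular identifiers (UMIs). Treatment and day cannot be told apart in this design, and no row of the files holds the reporter genes. With 1 library per group there is no replicate and no test was made; intervals are at 95% and cover counting error only.

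AT2 cells secrete surfactant and act as stem cells of the alveolus: they are mostly quiescent, and after injury some of them re-enter the cell cycle and give rise to new AT2 and AT1 cells. A dividing cell first loads the MCM helicase onto replication origins and copies its DNA in S phase, under genes switched on by E2F factors. It then builds a spindle and kinetochores in G2 and M phase, under genes switched on by the MuvB complex with B-MYB and FOXM1, and the anaphase-promoting complex with CDC20 and the ubiquitin-conjugating enzyme UBE2C ends mitosis by destroying cyclin B and securin. Bleomycin breaks DNA and injures the alveolar epithelium.

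Most genes that define the cycling cells carry promoter motifs known from the G2 and M phase programme. They are shown here in the RefSeq windows (GRCm38.p6, 300 bases, from 250 before to 50 after the gene's start, 5′ to 3′). The CHR element bound by MuvB was searched as TTTGAA, the CCAAT box bound by NF-Y as CCAAT, and E2F sites as TTTCCCGC or TTTGGCGC, each on both strands; matches are in capitals, and CCAAT boxes can overlap each other. Of 8 windows found for the 9 genes, 7 held CHR and 7 held CCAAT, and 0 held either E2F motif. Over all 32817 windows, 17.9% held CHR, 37.4% CCAAT and 1.56% an E2F motif. For origin licensing genes 7 of 14 windows held an E2F motif and 4 of 14 held CHR. For spindle and cytokinesis genes 3 of 35 held an E2F motif and 25 of 35 held CHR. CCAAT was in 11 of 14 licensing windows and 24 of 35 spindle and cytokinesis windows, so it did not set these lists apart. A pair of examples of each programme follows, Ube2c and Cdc20 for mitotic exit and the helicase subunits Mcm5 and Mcm6 for replication; a match is a description of the letters and not a measured site.
Ube2c, chr2:164769679-164769978, plus strand: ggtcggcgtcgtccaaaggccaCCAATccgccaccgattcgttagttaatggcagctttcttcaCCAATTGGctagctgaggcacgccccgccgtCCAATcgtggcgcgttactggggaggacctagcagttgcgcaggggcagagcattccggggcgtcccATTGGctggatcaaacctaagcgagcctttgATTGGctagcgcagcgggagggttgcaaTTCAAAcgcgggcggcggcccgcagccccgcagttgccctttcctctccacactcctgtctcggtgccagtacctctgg
Cdc20, chr4:118437294-118437593, minus strand: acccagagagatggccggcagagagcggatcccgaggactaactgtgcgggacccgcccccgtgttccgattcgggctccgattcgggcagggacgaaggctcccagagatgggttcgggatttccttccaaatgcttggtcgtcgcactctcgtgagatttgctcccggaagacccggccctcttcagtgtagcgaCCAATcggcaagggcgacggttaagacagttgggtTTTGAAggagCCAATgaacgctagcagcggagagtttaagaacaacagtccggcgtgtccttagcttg
Mcm5, chr8:75109259-75109558, plus strand: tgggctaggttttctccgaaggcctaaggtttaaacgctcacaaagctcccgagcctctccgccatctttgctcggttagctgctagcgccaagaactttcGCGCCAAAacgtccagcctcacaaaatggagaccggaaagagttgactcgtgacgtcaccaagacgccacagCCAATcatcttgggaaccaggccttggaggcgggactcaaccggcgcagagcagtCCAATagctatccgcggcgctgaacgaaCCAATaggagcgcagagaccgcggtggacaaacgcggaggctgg
Mcm6, chr1:128359656-128359955, minus strand: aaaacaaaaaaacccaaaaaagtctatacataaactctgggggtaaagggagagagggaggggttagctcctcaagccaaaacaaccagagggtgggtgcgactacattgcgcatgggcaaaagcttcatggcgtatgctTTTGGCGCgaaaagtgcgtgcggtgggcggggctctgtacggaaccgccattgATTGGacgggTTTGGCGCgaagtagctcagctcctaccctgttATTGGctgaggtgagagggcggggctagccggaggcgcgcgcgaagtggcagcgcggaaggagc

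Cycling cells made up 115 of 2993 cells (3.84%, 3.18 to 4.59) in 12-month bleomycin, 2 of 2745 cells (0.0729%, 0.00882 to 0.263) in 12-month PBS, 22 of 2624 cells (0.838%, 0.526 to 1.27) in 3-month bleomycin and 18 of 2394 cells (0.752%, 0.446 to 1.19) in 3-month PBS. The 12-month bleomycin library stood above the other three, and the 12-month PBS library, with 2 cycling cells, below them. The share in 12-month bleomycin was 52.7 (14.3 to 441) times that in 12-month PBS and 4.58 (2.89 to 7.6) times that in 3-month bleomycin. Among other Sftpc-high cells, 72.4% showed none of the 9 genes in 12-month bleomycin, 97.2% in 12-month PBS, 89.2% in 3-month bleomycin and 92.8% in 3-month PBS. In 3-month mice the bleomycin share was 1.12 (0.571 to 2.21) times the PBS share, an interval that includes 1, and in PBS mice the 12-month share was 0.0969 (0.0109 to 0.405) times the 3-month share.

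Depth differed between the libraries, and a deeper cell can show 4 of 9 genes at a lower level. Each library's cycling cells were set against its other cells with Sftpc at 5% or more of their UMIs, called other Sftpc-high cells here. Cells that met the cell cycle criterion but showed all 3 leukocyte genes stayed in this class where they held that much Sftpc. In 12-month bleomycin, 2 of these 2356 cells showed 7 or more of the 9 genes. The other Sftpc-high cells had medians of 12372.5 UMIs in 12-month bleomycin, 5137 in 12-month PBS, 8532 in 3-month bleomycin and 4558.5 in 3-month PBS. Of the PBS libraries the deeper one thus had the lower share. After cells with 3000 or more UMIs were thinned to 3000, shallower ones being left out, cycling cells were 45 of 2993 cells (1.5%, 1.1 to 2.01) in 12-month bleomycin, 0 of 2424 cells (0%, 0 to 0.152) in 12-month PBS, 13 of 2510 cells (0.518%, 0.276 to 0.884) in 3-month bleomycin and 16 of 2003 cells (0.799%, 0.457 to 1.29) in 3-month PBS. The order of the 3-month pair turned round, within its interval, and the 12-month bleomycin share remained highest. It was then 2.9 (1.54 to 5.87) times that in 3-month bleomycin, and the 3-month bleomycin share was 0.648 (0.287 to 1.44) times that in 3-month PBS. Thinned to 2000 UMIs, the 12-month over 3-month ratio after bleomycin was 2.07 (0.989 to 4.65), whose interval includes 1. Shares were then 0.869% (0.568 to 1.27) in 12-month bleomycin, 0% (0 to 0.14) in 12-month PBS, 0.419% (0.209 to 0.749) in 3-month bleomycin and 0.659% (0.369 to 1.08) in 3-month PBS. The intervals of 12-month bleomycin and 3-month PBS overlapped at 3000 and at 2000 UMIs. Counted only among cells with Sftpc at 5% or more, that ratio was 4.41 (2.7 to 7.55) at full depth, with 94 cycling cells in 12-month bleomycin, 1 in 12-month PBS, 20 in 3-month bleomycin and 16 in 3-month PBS. With only cells that lacked all 3 leukocyte genes called cycling, over all cells, 44 were left in 12-month bleomycin and 18 in 3-month bleomycin, a ratio of shares of 2.14 (1.21 to 3.94). With cells that carried any of the 3 genes left out of the denominator too, a setting chosen after seeing the data, the shares were 44 of 1520 cells (2.89%, 2.11 to 3.87) and 18 of 2356 cells (0.764%, 0.453 to 1.2), a ratio of 3.79 (2.14 to 6.97). Of the cycling cells, 61.7% in 12-month bleomycin and 18.2% in 3-month bleomycin carried 1 or 2 of these genes. Of the other Sftpc-high cells, 42.7% and 8.25% did, so the genes were more frequent in cycling cells but not confined to them. In another setting, cells that carried 2 or more T or NK, B or plasma, endothelial or mesenchymal markers were left out. Cycling cells were then 46 of 1849 cells (2.49%, 1.83 to 3.3) in 12-month bleomycin and 20 of 2388 cells (0.838%, 0.512 to 1.29) in 3-month bleomycin. The ratio of these shares was 2.97 (1.72 to 5.3). This filter kept 46 of 115 cycling cells and 1849 of 2993 cells in 12-month bleomycin. Of the other Sftpc-high cells there, 28.3% carried 2 or more B or plasma markers.

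**Figure D1:**
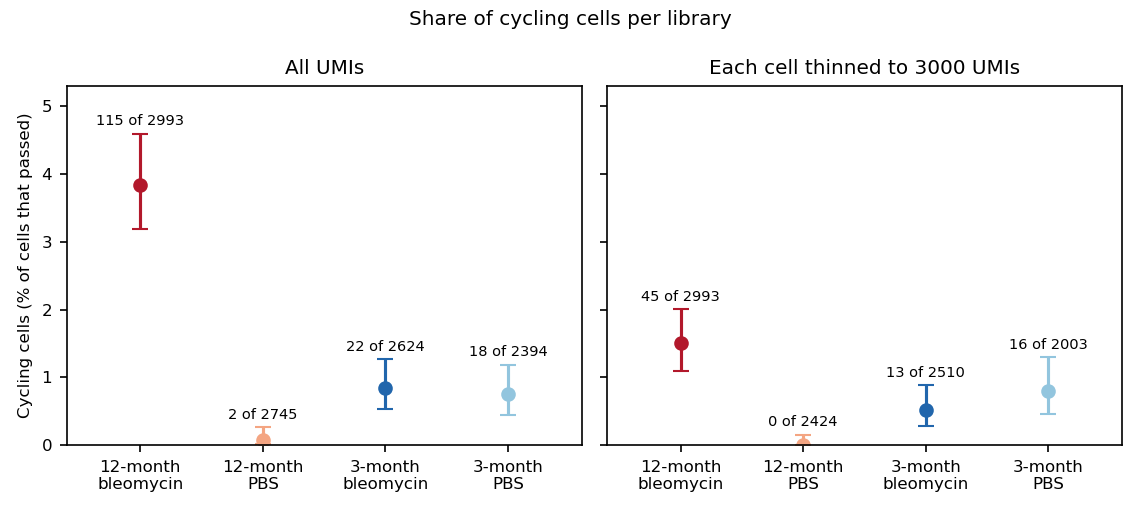
Cycling cells as a percentage of the cells that passed the filter in each library, at full depth (left) and with cells of 3000 or more UMIs thinned to 3000 (right). Points are shares, bars are exact Clopper-Pearson 95% intervals for counting error, and the numbers are cycling cells of all cells; 12-month bleomycin is highest in both panels, at 115 of 2993 and 45 of 2993 cells.

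Of the 157 cycling cells, 131 held Sftpc at 5% or more of their UMIs. At least 2 of the 8 AT2 markers were detected in 115 of 115 cycling cells in 12-month bleomycin, 2 of 2 in 12-month PBS, 22 of 22 in 3-month bleomycin and 18 of 18 in 3-month PBS, also where T or NK markers were present, so their detection alone does not tell cell types apart. Sftpc, surfactant protein C, took a median of 9.59% of UMIs in cycling cells of 12-month bleomycin, 3.68% in 12-month PBS, 12.1% in 3-month bleomycin and 9.95% in 3-month PBS, against 16.5%, 15.1%, 16.9% and 12.9% in the other Sftpc-high cells, which were chosen to hold at least 5%. Cycling cells were the deeper ones in every library: medians were 18022 UMIs in 12-month bleomycin, 20029.5 in 12-month PBS, 15939.5 in 3-month bleomycin and 7947 in 3-month PBS. Scrublet, a doublet caller that scores a cell against simulated mixtures, marked 0 of the cycling cells, and 60, 63, 53 and 48 of the other Sftpc-high cells in the same 4 libraries. The libraries shared 68 barcodes, and 1 cycling cell had such a barcode.

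The 21 cycling cells of 12-month bleomycin with less than 5% Sftpc differed in their markers, and the label alveolar does not hold for all of them. Of these, 15 carried at least 2 markers of leukocytes, T or NK cells, mesenchymal cells or ciliated cells, and 6 carried none of these sets. At least 2 T or NK markers were found in 5, mesenchymal markers in 4, ciliated markers in 4 and leukocyte markers in 7, with some cells in more than 1 set. Such counts were also found outside these cells: among other Sftpc-high cells of that library 3.18%, 1.78%, 8.06% and 9.21% carried 2 or more markers of these sets, at a median of 12372.5 UMIs. At a level of 10 or more UMIs per 10000, chosen after seeing the values, T or NK markers were found in 4 of the 21 cells, mesenchymal in 3, ciliated in 2 and leukocyte markers in 6. Any of the 4 sets reached it in 11 of the 21 cells and in 0 of the 94 Sftpc-high cycling cells, against 40 of 2356 other Sftpc-high cells (1.7%), and club markers took 1000 or more per 10000 in 1 of the 21. Collagen genes show how few cells carried them: 92.4% of the 198 Col1a1 counts came from 1 cell, and 94.9% of the 197 Col1a2 counts. Foxj1, the master factor of motile cilia, and Ccna1, a cyclin known from male germ cells, had counts in 2 and 2 cycling cells, all below 5% Sftpc. In 12-month PBS, 1 of the 2 cycling cells held 1.01% Sftpc and 6 of 10 T or NK markers. Both cycling cells under 5% Sftpc in 3-month bleomycin had at least 2 club and 2 ciliated markers detected, though ciliated markers took 19.1 UMIs per 10000 in 1 cell and 1.2 in the other. Their club markers stood at 211641 CPM, counts per 1000000 UMIs of those cells, against 4735 CPM in the other Sftpc-high cells, and 1 of the 2 cells held nearly all of them, with 3419.9 club UMIs per 10000 against 31.4 in the other cell. Both such cells of 3-month PBS carried 2 ciliated markers each, with 7 and 6 of 7 epithelial ones; 9.16% of the other Sftpc-high cells there carried 2 or more ciliated markers. Values for the 94 and 20 Sftpc-high cycling cells of the bleomycin libraries are given below beside several lists. Gene levels in 12-month PBS rest on its 2 cells and are given for lists and in the plots. Of the 40059 UMIs of these 2 cells, 25603 came from the cell with T or NK markers. Sums there thus do not describe alveolar cells alone.

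Within the Sftpc-high cycling cells of 12-month bleomycin, mesenchymal markers summed to 17.6 CPM against 26.7 CPM in other Sftpc-high cells, and T or NK markers to 17.6 against 23.1 CPM. B or plasma cell markers were at 150.2 against 147 CPM, and macrophage markers at 83.1 against 125 CPM, none of these being higher by 1.5-fold in the cycling cells. Neutrophil markers were at 416 against 94.2 CPM, and 77.7% of the counts of Retnlg, a neutrophil gene, came from 1 cell. In 3-month PBS, leukocyte, T or NK and macrophage markers were all at 0 counts in the 18 cycling cells.

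The 9 cell cycle genes chose the cells and are given as a description. Ube2c was at 351 CPM in cycling cells of 12-month bleomycin, 181 in 3-month bleomycin and 1334 in 3-month PBS, against 2.56, 0.488 and 2.41 CPM in their other Sftpc-high cells. Cdc20 was at 356 CPM in cycling cells of 12-month bleomycin, 309 in 3-month bleomycin and 472 in 3-month PBS, against 6.85, 4.29 and 3.71 CPM in their other Sftpc-high cells. Mki67, the proliferation antigen of histology, was at 75.5 CPM in cycling cells of 12-month bleomycin, 128 in 3-month bleomycin and 172 in 3-month PBS, against 1.83, 0.927 and 1.21 CPM in their other Sftpc-high cells. All of these were near 0 in other Sftpc-high cells, and Ube2c was highest in 3-month PBS. The sum of the 9 genes was 2064 CPM in cycling cells of 12-month bleomycin, 2194 in 3-month bleomycin and 5832 in 3-month PBS, the shallowest library. In 12-month bleomycin, 42 of 115 cycling cells showed 7 or more of the 9, and so did 12 of 22 in 3-month bleomycin and 12 of 18 in 3-month PBS. Just inside the threshold, 20 cycling cells of 12-month bleomycin with exactly 4 genes had replication fork genes at 945 CPM and kinetochore genes at 465 CPM. Just outside it, 37 cells with exactly 3 genes had 1273 and 351 CPM, so the threshold cuts through a range and does not mark a gap.

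In 12-month bleomycin 2530 genes reached 50 CPM in either cell class. Of these, 254 stood 2-fold or more above the other Sftpc-high cells in cycling cells (10%) and 38 stood 2-fold or more below (1.5%). In 3-month bleomycin the counts were 335 higher (13%) and 73 lower (2.84%) of 2568. These contrasts rest on the cells chosen by their cell cycle counts and are given as a description. The higher genes outnumbered the lower ones in both. The 2 bleomycin libraries shared 174 of the higher genes, 68.5% of the 12-month list and 51.9% of the 3-month list, and 16 of the lower ones, 42.1% and 21.9%. The split depended on scaling: scaled without the 20 most abundant genes, 166 genes were higher and 100 lower in 12-month bleomycin, and 263 higher and 109 lower in 3-month bleomycin. The median log2 ratio over all genes was 0.20 in 12-month and 0.31 in 3-month bleomycin, and -0.06 and 0.15 without those 20 genes; list medians below are to be read against the first pair. Restricted to Sftpc-high cycling cells, 162 genes were higher (6.58%) and 23 lower (0.934%) in 12-month bleomycin. For these cells the median log2 ratio over all genes was 0.12 in 12-month and 0.31 in 3-month bleomycin; among genes with 10 or more counts, 23.4% and 37.5% were at least 1.5-fold higher and 14.8% and 15.2% lower.

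The genes with the highest ratios outside those 9, in 12-month bleomycin, were mostly mitotic. Ccnb1, cyclin B1, which drives entry into mitosis, was at 77.8 CPM in cycling cells of 12-month bleomycin, 71.4 in 3-month bleomycin and 165 in 3-month PBS, against 0.565, 1.07 and 0.278 CPM in their other Sftpc-high cells. Plk1, the polo kinase of spindle assembly, was at 50.6 CPM in cycling cells of 12-month bleomycin, 45.9 in 3-month bleomycin and 97.5 in 3-month PBS, against 0.366, 0.195 and 0.278 CPM in their other Sftpc-high cells. Ccna2, cyclin A2 of S and G2 phase, was at 85.1 CPM in cycling cells of 12-month bleomycin, 99.5 in 3-month bleomycin and 195 in 3-month PBS, against 0.897, 0.536 and 0.557 CPM in their other Sftpc-high cells. Each gene lay near 0 in other Sftpc-high cells. The ratios in 12-month bleomycin were 134 (83.5 to 242), 133 (74.4 to 285) and 93.4 (63.1 to 148). Pbk, a mitotic kinase, Nusap1, which bundles spindle microtubules, Ccnb2, Cdkn3, Aurka and Cdca8, a chromosomal passenger protein, followed, with ratios between 62 and 86.5. Among the 12 highest were also Acta2, smooth muscle actin, Col1a1 and Col1a2, which had 3, 1 and 2 counts in the 94 Sftpc-high cycling cells; there, Col1a1 was at 0.569 CPM against 1.36 CPM in other Sftpc-high cells.

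**Figure D2:**
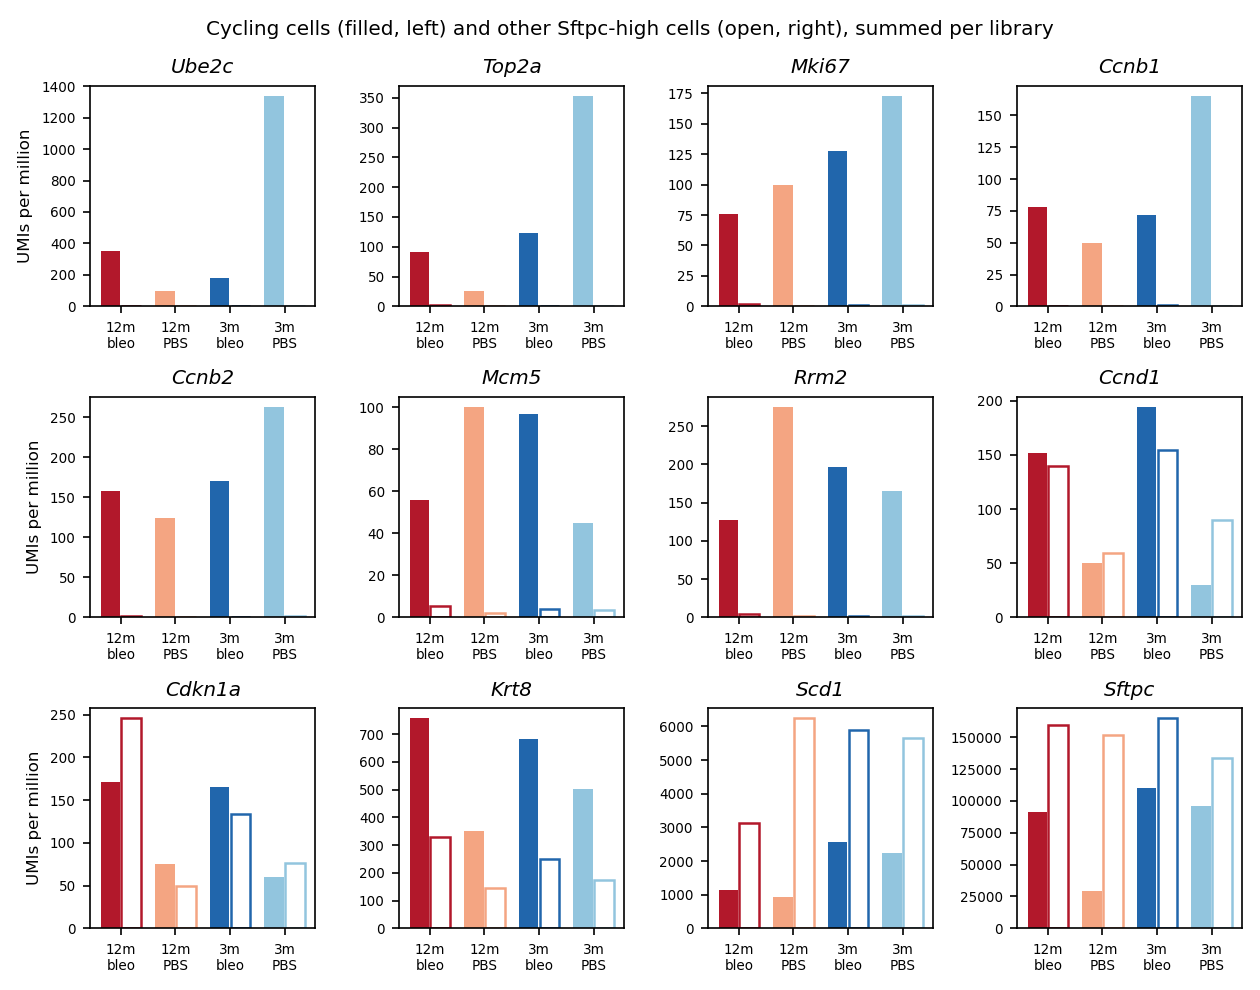
CPM of 12 genes, from counts summed over cycling cells (filled bars, left of each pair) and other Sftpc-high cells (open bars, right) of each library; 12m and 3m are ages in months and bleo is bleomycin, and each panel has its own axis from 0. The cell cycle genes are near 0 in the open bars, Krt8 is higher in the filled bars, and Scd1 and Sftpc are lower in them; the 12-month PBS bars rest on 2 cells.

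Genes of DNA replication were higher together. Of the origin licensing and helicase list, which loads and fires MCM, 18 of 18 measured genes were at least 1.5-fold higher in cycling cells of 12-month bleomycin and 17 of 17 in 3-month bleomycin, with median log2 ratios of 2.45 and 3.94; among all genes with 10 or more counts, 29.6% and 36.9% were at least 1.5-fold higher and 14.1% and 14.3% lower. Mcm5 was at 55.7 CPM in cycling cells of 12-month bleomycin, 96.9 in 3-month bleomycin and 45 in 3-month PBS, against 5.35, 3.9 and 3.34 CPM in their other Sftpc-high cells. Mcm6 was at 50.2 CPM in cycling cells of 12-month bleomycin, 107 in 3-month bleomycin and 37.5 in 3-month PBS, against 5.65, 3.46 and 2.88 CPM in their other Sftpc-high cells. Of these libraries, both were highest in cycling cells of 3-month bleomycin. Gmnn, geminin, which prevents re-licensing, was at 62.1 CPM in cycling cells of 12-month bleomycin, 133 in 3-month bleomycin and 82.5 in 3-month PBS, against 10.4, 8.0 and 6.22 CPM in their other Sftpc-high cells. Of the replication fork and nucleotide supply list, 34 of 34 genes were higher in 12-month bleomycin and 34 of 34 in 3-month bleomycin, with medians of 2.40 and 3.19. So no measured gene of either replication list fell short of 1.5-fold higher in these libraries. Rrm2, the ribonucleotide reductase subunit that makes deoxynucleotides, was at 127 CPM in cycling cells of 12-month bleomycin, 196 in 3-month bleomycin and 165 in 3-month PBS, against 3.79, 1.41 and 1.3 CPM in their other Sftpc-high cells. Pcna, the sliding clamp, was at 115 CPM in cycling cells of 12-month bleomycin, 250.0 in 3-month bleomycin and 277 in 3-month PBS, against 31.3, 32.6 and 39.1 CPM in their other Sftpc-high cells. It was thus found in other Sftpc-high cells too, and its ratio in 12-month bleomycin was 3.68 (3.18 to 4.23) against 33.6 (27 to 42.2) for Rrm2.

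Among chromatin genes, histone variants and chromatin proteins were mostly higher. Replication-dependent histones, whose mRNAs lack a poly(A) tail and are poorly caught by a 3' poly(A) kit, summed to 139 CPM in cycling cells and 33.7 CPM in other Sftpc-high cells of 12-month bleomycin. In that library 13 of 15 were higher and 1 lower, and in 3-month bleomycin 4 of 10 were higher and 2 lower. Among all genes, 29.6% and 36.9% were higher and 14.1% and 14.3% lower, so the 3-month counts lay near that share. The list medians were 2.53 and -0.20, beside 0.20 and 0.31 over all genes. Hist1h2al was lower in cycling cells, unlike Hist1h2ap, at 28.5 CPM in cycling and 82.4 CPM in other cells of 12-month bleomycin, and at 38.3 and 118 CPM in 3-month bleomycin; histone genes of this cluster are near-identical, and how reads were split among them is uncertain. Of histone variants and chromatin proteins, 22 of 23 were higher in 12-month and 21 of 23 in 3-month bleomycin. H2afz, the histone variant H2A.Z, was at 2840.5 CPM in cycling cells of 12-month bleomycin, 2775 in 3-month bleomycin and 4131 in 3-month PBS, against 575, 443 and 379.8 CPM in their other Sftpc-high cells. Hmgb2, a DNA-bending protein, was at 650.2 CPM in cycling cells of 12-month bleomycin, 485 in 3-month bleomycin and 1612 in 3-month PBS, against 86.6, 63.2 and 93.1 CPM in their other Sftpc-high cells. Both were found in nearly every cycling cell of 12-month bleomycin, 115 and 111 of 115.

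Spindle and kinetochore genes had the largest list medians. The genes that chose the cells are mostly mitotic, so this order cannot be separated from the choice. By ratios of sums in 12-month bleomycin, kinetochore genes stood at 11.3, spindle genes at 6.03, condensin genes at 4.80 and cyclins at 4.34. Licensing and fork genes stood at 5.42 and 5.24. Of all genes, 29.6% were at least 1.5-fold higher in 12-month and 36.9% in 3-month bleomycin. Of kinetochore and spindle checkpoint genes, 24 of 25 were at least 1.5-fold higher in 12-month bleomycin and 17 of 17 in 3-month bleomycin, with medians of 4.27 and 4.89. Spc24, a subunit of the NDC80 complex that holds microtubules, was at 225 CPM in cycling cells of 12-month bleomycin, 281 in 3-month bleomycin and 412 in 3-month PBS, against 15.5, 12.3 and 13.2 CPM in their other Sftpc-high cells. Knstrn, kinastrin, was at 87.9 CPM in cycling cells of 12-month bleomycin, 135 in 3-month bleomycin and 202 in 3-month PBS, against 2.33, 2.0 and 0.65 CPM in their other Sftpc-high cells. Both were above their level in other Sftpc-high cells in each library. For spindle, motor and cytokinesis genes 35 of 36 and 32 of 32 were higher, with medians of 4.93 and 6.28. Stmn1, stathmin, which destabilises microtubules, was at 941 CPM in cycling cells of 12-month bleomycin, 979.5 in 3-month bleomycin and 3014 in 3-month PBS, against 89.6, 44.7 and 71.6 CPM in their other Sftpc-high cells. Tubb5, a beta-tubulin, was at 745 CPM in cycling cells and 131 CPM in other Sftpc-high cells of 12-month bleomycin. Condensin, cohesin and separase genes were higher for 15 of 16 and 13 of 15. Pttg1, securin, which restrains separase until anaphase, was at 292 CPM in cycling cells of 12-month bleomycin, 224 in 3-month bleomycin and 435 in 3-month PBS, against 9.8, 5.95 and 3.34 CPM in their other Sftpc-high cells. Cyclins and mitotic kinases were higher for 23 of 28 and 21 of 26. Ccnd1, cyclin D1, which links growth factor signals to the cell cycle, was not among them: it was at 152 CPM in cycling cells of 12-month bleomycin, 194 in 3-month bleomycin and 29.99 in 3-month PBS, against 139.6, 154 and 89.9 CPM in their other Sftpc-high cells, a ratio of 1.09 (0.969 to 1.22) in 12-month bleomycin.

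Regulators of the cycle split by role. Of E2F, MuvB and FoxM1 regulators 10 of 12 were higher in 12-month and 7 of 10 in 3-month bleomycin. Foxm1, which switches on mitotic genes, was at 12 CPM in cycling cells of 12-month bleomycin, 28.1 in 3-month bleomycin and 15 in 3-month PBS, against 0.831, 0.585 and 0.557 CPM in their other Sftpc-high cells. E2f1, which switches on replication genes, was at 12.9 CPM in cycling cells of 12-month bleomycin, 53.6 in 3-month bleomycin and 22.5 in 3-month PBS, against 3.16, 2.83 and 1.39 CPM in their other Sftpc-high cells. Both were low, and the 3-month PBS values rest on 2 and 3 counts. Of CDK inhibitor and quiescence genes 6 of 16 were higher and 2 lower in 12-month bleomycin, and 6 of 16 higher and 4 lower in 3-month bleomycin, with medians of -0.09 and 0.20. Over all genes 29.6% and 36.9% were higher and 14.1% and 14.3% lower in these libraries. Cdkn1a, the p53 target p21, was at 171 CPM in cycling cells of 12-month bleomycin, 166 in 3-month bleomycin and 59.97 in 3-month PBS, against 246, 134 and 76.8 CPM in their other Sftpc-high cells. Its ratio was 0.698 (0.627 to 0.774) in 12-month and 1.25 (0.952 to 1.58) in 3-month bleomycin. In 3-month bleomycin 1 of the 22 cycling cells held 55.4% of its 65 counts; without that cell, left out after seeing the data, Cdkn1a was at 79.9 CPM and the ratio was 0.606 (0.399 to 0.858). Cdkn2c and Cdkn2d, inhibitors of CDK4 and CDK6, were 2.69-fold and 3.64-fold higher in cycling cells of 12-month bleomycin, and Btg2, an antiproliferative gene, was 1.86-fold lower (1.62 to 2.15). Mxd4, a repressor that opposes MYC, was at 41 CPM in cycling cells of 12-month bleomycin, 28.1 in 3-month bleomycin and 37.5 in 3-month PBS, against 97.5, 85.1 and 112 CPM in their other Sftpc-high cells. DNA repair and replication checkpoint genes were higher for 16 of 18 in 12-month and 14 of 14 in 3-month bleomycin. The inhibitors thus showed no common direction, with a share of higher genes near that over all genes, while repair genes were mostly higher in both libraries.

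**Figure D3:**
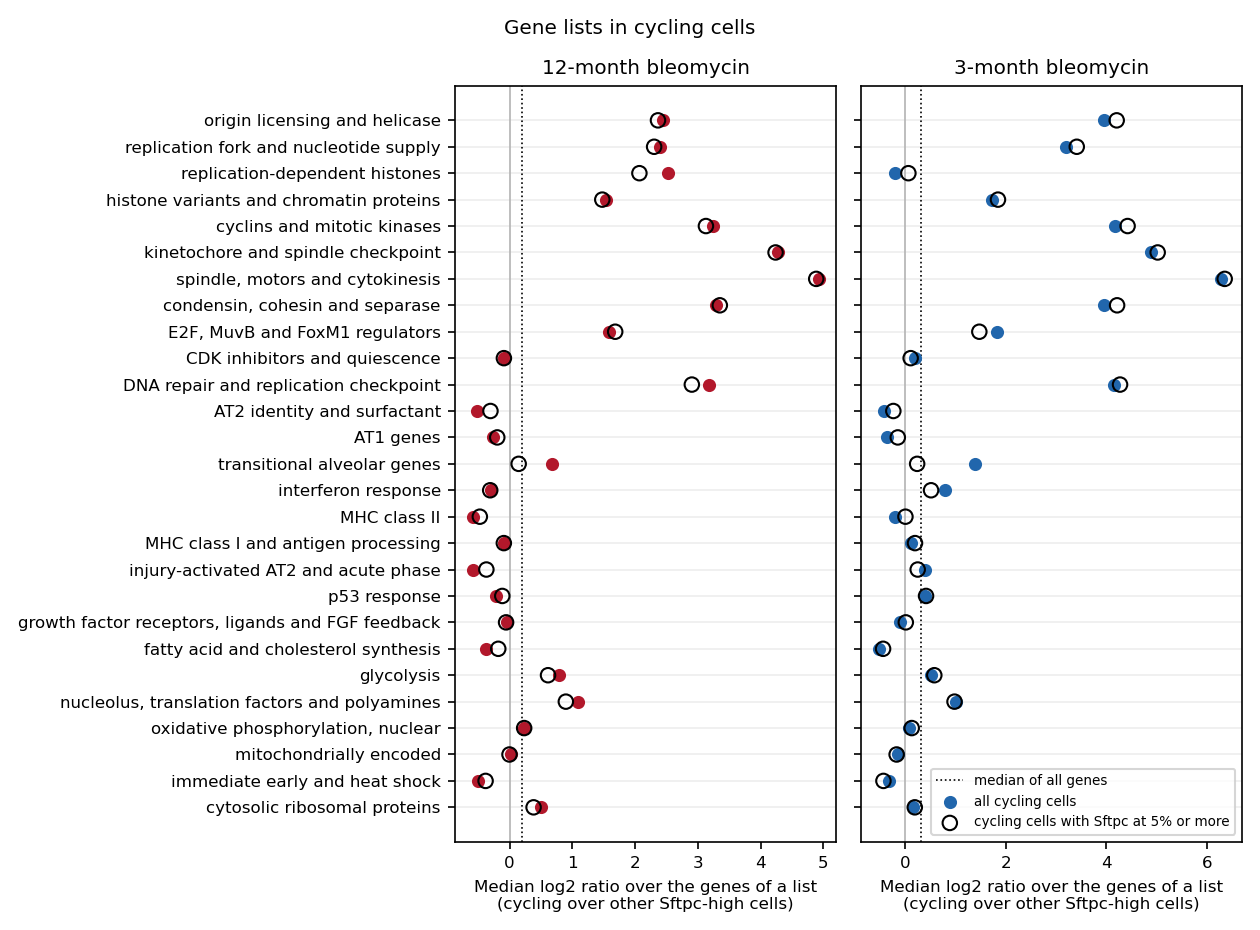
Median log2 ratio of cycling over other Sftpc-high cells over the genes of each list, in 12-month bleomycin (left) and 3-month bleomycin (right). Filled points use all cycling cells, open circles those with Sftpc at 5% or more, and the dotted line is the median of all genes; replication and mitosis lists lie far to the right, AT2 and lipid lists to the left of the dotted line, and the transitional list moves towards it once cells under 5% Sftpc are left out.

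Cycling cells varied in how much replication and mitosis RNA they held; no phase was called. Licensing and fork genes together took a median of 16.8 UMIs per 10000 in cycling cells of 12-month bleomycin (2.89 to 80.01), 30.4 in 3-month bleomycin (6.9 to 79.5) and 15.2 in 3-month PBS (5.91 to 101), against medians of 3.71, 3.41 and 3.1 in other Sftpc-high cells. Kinetochore genes took medians of 9.54, 13.5 and 21.7 in cycling cells of the same libraries, against 0.571, 0 and 0 in other Sftpc-high cells. The ranges of cycling cells overlapped between libraries, while the 3-month PBS median was highest for kinetochore genes and the 3-month bleomycin median for replication genes. Replication UMIs outnumbered kinetochore UMIs in 97 of 115 cells in 12-month bleomycin, 19 of 22 in 3-month bleomycin and 10 of 18 in 3-month PBS. The lists differ in their number of genes, so their levels cannot be set against each other. Libraries differed in depth, with medians of 18022, 15939.5 and 7947 UMIs in these cycling cells. Deeper cells could meet the criterion at lower levels of cell cycle genes, and the part of depth in these differences between libraries was not tested. A single cycling cell of 12-month bleomycin had 82.9 histone UMIs per 10000, where the median was 0.75.

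**Figure D4:**
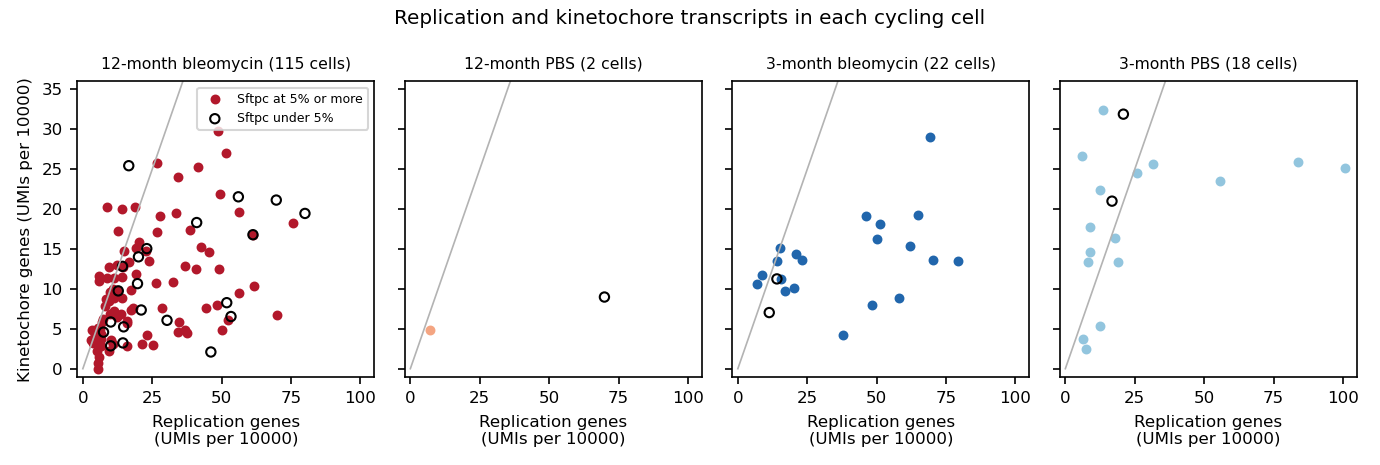
UMIs per 10000 of replication genes (licensing and fork lists, x axis) and of kinetochore genes (y axis) in each cycling cell, 1 panel per library. Filled points have Sftpc at 5% or more, open circles less, and the line marks equal values; cells spread along both axes in the 3 libraries with more than 2 cycling cells.

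Cycling cells expressed the AT2 programme at a lower share of their RNA. AT2 identity and surfactant genes summed to 158668 CPM in cycling cells of 12-month bleomycin, 51524 in 12-month PBS, 186398 in 3-month bleomycin and 145849 in 3-month PBS, against 273805, 248344, 272932 and 221576 CPM in the other Sftpc-high cells of those libraries. The sum was lower in cycling cells of each library, where only the other cells had to hold 5% Sftpc. Among Sftpc-high cycling cells the ratio of sums to other Sftpc-high cells was 0.684 in 12-month bleomycin, 0.791 in 3-month bleomycin and 0.711 in 3-month PBS. In the 1 such cell of 12-month PBS it was 0.461. Sftpc itself was at 91418 CPM in cycling cells of 12-month bleomycin, 110281 in 3-month bleomycin and 96131 in 3-month PBS, against 159564, 164732 and 133379 CPM in their other Sftpc-high cells. Lyz2, lysozyme of mouse AT2 cells and macrophages, was at 15343 CPM in cycling cells of 12-month bleomycin, 19984 in 3-month bleomycin and 12572 in 3-month PBS, against 35639, 34079 and 24313 CPM in their other Sftpc-high cells. Sftpb, surfactant protein B, was nearer to equal, with 16518 CPM in Sftpc-high cycling cells and 18122 CPM in other Sftpc-high cells of 12-month bleomycin. In molecules per cell rather than share, AT2 genes averaged 3505 UMIs in a Sftpc-high cycling cell and 3497 in another Sftpc-high cell of 12-month bleomycin, and 3536 and 2456 in 3-month bleomycin. AT1 genes showed 3 of 15 higher and 5 lower in 12-month bleomycin, where 29.6% of all genes were higher and 14.1% lower. Ager, an AT1 marker, was at 1565 CPM in cycling cells of 12-month bleomycin, 1541 in 3-month bleomycin and 1799 in 3-month PBS, against 2073, 1979 and 1594 CPM in their other Sftpc-high cells.

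Genes of lipid synthesis, which feeds surfactant phospholipid, took a lower share of UMIs in cycling cells of all 4 libraries. Fatty acid and cholesterol synthesis genes summed to 3218 CPM in cycling cells of 12-month bleomycin, 1872 in 12-month PBS, 5247 in 3-month bleomycin and 4491 in 3-month PBS, against 6118, 9307, 9790.5 and 8871 CPM in the other Sftpc-high cells of those libraries. In Sftpc-high cycling cells the ratio of sums was 0.603 in 12-month bleomycin, 0.603 in 3-month bleomycin and 0.545 in 3-month PBS. In the 1 such cell of 12-month PBS it was 0.424. In molecules per cell, the list averaged 68.9 UMIs in Sftpc-high cycling cells and 78.1 in other Sftpc-high cells of 12-month bleomycin. The averages were 96.65 and 88.1 in 3-month bleomycin and 36.1 and 41.7 in 3-month PBS. The 1 such cell of 12-month PBS held 57, against 48.1. Lipid synthesis genes were thus not lower per cell in each library. No gene of the list was at least 1.5-fold higher in either bleomycin library, and 8 and 7 of 19 were lower in 12-month and 3-month bleomycin, where 14.1% and 14.3% of all genes were; among Sftpc-high cycling cells 3 and 7 were lower and 1 and 1 higher. Scd1, stearoyl-CoA desaturase, was at 1127 CPM in cycling cells of 12-month bleomycin, 2571 in 3-month bleomycin and 2227 in 3-month PBS, against 3121, 5898 and 5650.2 CPM in their other Sftpc-high cells. In 12-month bleomycin it was 2.77-fold lower (2.66 to 2.88) in cycling cells. Fasn, fatty acid synthase, was at 271 CPM in cycling cells of 12-month bleomycin, 464 in 3-month bleomycin and 337 in 3-month PBS, against 562, 671 and 499 CPM in their other Sftpc-high cells. Other genes named for the lowest ratios were Cox6a2, Ttc36, Snhg11, Aox3, Acoxl, Nrn1, Mettl7a1, Zbtb20 and Nupr1, at 0.192 to 0.416 times the level in other Sftpc-high cells of 12-month bleomycin. Cox6a2, a heart and muscle form of a cytochrome oxidase subunit, was at 10.6 CPM in cycling cells of 12-month bleomycin, 43.4 in 3-month bleomycin and 7.5 in 3-month PBS, against 56.4, 196 and 269 CPM in their other Sftpc-high cells.

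Genes of biosynthesis were mostly higher in cycling cells of the bleomycin libraries. Nucleolar, translation factor and polyamine genes were higher for 14 of 16 in 12-month and 13 of 16 in 3-month bleomycin, with medians of 1.08 and 1.01. They summed to 3129.9 CPM in cycling cells of 12-month bleomycin, 7764 in 12-month PBS, 2686 in 3-month bleomycin and 1642 in 3-month PBS, against 1627, 1320.3, 1533 and 1392 CPM in the other Sftpc-high cells of those libraries. In the 1 Sftpc-high cycling cell of 12-month PBS they were at 2490 CPM, from 36 UMIs. Npm1, nucleophosmin, was at 415 CPM in cycling cells of 12-month bleomycin, 334 in 3-month bleomycin and 269.9 in 3-month PBS, against 186, 165 and 229 CPM in their other Sftpc-high cells. Eif4a1, the helicase of translation initiation, was at 779 CPM in cycling cells of 12-month bleomycin, 684 in 3-month bleomycin and 217 in 3-month PBS, against 405, 311 and 185 CPM in their other Sftpc-high cells. Both were closer to the other Sftpc-high cells in 3-month PBS than after bleomycin. Glycolysis genes were at least 1.5-fold higher for 8 of 13 in 12-month and 5 of 13 in 3-month bleomycin, where 29.6% and 36.9% of all genes were, with medians of 0.78 and 0.51. Scaled without the 20 most abundant genes these counts were 5 and 2, and among Sftpc-high cycling cells 7 and 6. Gapdh was at 1777 CPM in cycling cells of 12-month bleomycin, 1237 in 3-month bleomycin and 652 in 3-month PBS, against 1034, 628 and 271 CPM in their other Sftpc-high cells. Ldha, lactate dehydrogenase A, was at 1166 CPM in cycling cells of 12-month bleomycin, 954 in 3-month bleomycin and 922 in 3-month PBS, against 766, 682 and 436 CPM in their other Sftpc-high cells. Ribosomal protein genes were mostly less than 1.5-fold higher: 17 of 82 passed that fold in 12-month and 2 of 82 in 3-month bleomycin, and 6 and 4 did among Sftpc-high cycling cells. Their medians over all cycling cells were 0.50 and 0.16, the second turning to -0.01 when scaled without the 20 most abundant genes. Nuclear genes of oxidative phosphorylation had medians of 0.22 and 0.07, and -0.03 and -0.09 under that scaling. Mitochondrially encoded genes had medians of 0.03 and -0.14, with -0.23 and -0.31 under it.

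Transitional state genes were higher over all cycling cells, and most of this lay in the cells under 5% Sftpc. Of 18 genes of the transitional alveolar state, through which AT2 cells pass on the way to AT1, 10 were higher in 12-month and 11 in 3-month bleomycin, with medians of 0.67 and 1.40. Of all genes, 29.6% and 36.9% were higher there. Among Sftpc-high cycling cells 4 were higher and 2 lower in 12-month and 7 higher and 6 lower in 3-month bleomycin. For these cells 23.4% and 37.5% of all genes were higher and 14.8% and 15.2% lower, so the numbers of higher genes lay near that share. The list medians were 0.15 and 0.24, beside 0.12 and 0.31 over all genes. The ratio of sums there was 1.12 (1.09 to 1.15) in 12-month and 1.04 (0.963 to 1.11) in 3-month bleomycin. Krt8, a keratin of simple epithelia, was at 756 CPM in cycling cells of 12-month bleomycin, 684 in 3-month bleomycin and 502 in 3-month PBS, against 329, 248 and 173 CPM in their other Sftpc-high cells. In Sftpc-high cycling cells Krt8 was at 622, 437 and 460.1 CPM in the same libraries, above the other Sftpc-high cells in each; 44% of the Krt8 counts of 3-month bleomycin cycling cells came from 1 cell. S100a6, a calcium-binding protein, was at 468 CPM over all cycling cells and 101 CPM in the Sftpc-high ones, against 110.1 CPM in other Sftpc-high cells of 12-month bleomycin. Clu, clusterin, was at 1431 CPM over all and 278 CPM in Sftpc-high cycling cells, against 304 CPM in other Sftpc-high cells, in 3-month bleomycin, where 1 cycling cell held 80.7% of its counts. Cldn4, a claudin of the transitional state, had 32 counts in 15 cycling cells of 12-month bleomycin, and 6.83 CPM in the Sftpc-high ones against 7.11 CPM in other Sftpc-high cells.

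Interferon response genes stood high in 12-month bleomycin in cycling and other cells alike. They summed to 2033 CPM in cycling cells of 12-month bleomycin, 374 in 12-month PBS, 334 in 3-month bleomycin and 345 in 3-month PBS, against 2431, 204, 218 and 103 CPM in the other Sftpc-high cells of those libraries. In 12-month bleomycin 1 of 23 genes were higher and 6 lower in cycling cells with a median of -0.30. In 3-month bleomycin 11 of 20 were higher and 2 lower with a median of 0.80. Over all genes 29.6% and 36.9% were higher and 14.1% and 14.3% lower in these libraries. Among Sftpc-high cycling cells 0 of 23 were higher and 8 lower in 12-month, and 8 of 20 higher and 2 lower in 3-month bleomycin. There 23.4% and 37.5% of all genes were higher, and the list medians were -0.31 and 0.51, beside 0.12 and 0.31 over all genes. Ifi27l2a, an interferon-induced gene, was at 570.1 CPM in cycling cells of 12-month bleomycin, 17.9 in 3-month bleomycin and 149.9 in 3-month PBS, against 867, 23.1 and 22.5 CPM in their other Sftpc-high cells. Isg15, a ubiquitin-like antiviral protein, was at 158 CPM in cycling cells of 12-month bleomycin, 20.4 in 3-month bleomycin and 7.5 in 3-month PBS, against 198, 16.2 and 6.4 CPM in their other Sftpc-high cells. MHC class I and antigen processing genes summed to 12601 CPM in cycling cells of 12-month bleomycin, 11208.5 in 12-month PBS, 5079 in 3-month bleomycin and 5045 in 3-month PBS, against 14699.9, 7356, 5193 and 3022 CPM in the other Sftpc-high cells of those libraries. MHC class II genes, which AT2 cells express, summed to 12458 CPM in cycling cells of 12-month bleomycin, 2347 in 12-month PBS, 10459 in 3-month bleomycin and 6485 in 3-month PBS, against 18659, 9194, 11798 and 7235 CPM in the other Sftpc-high cells of those libraries, and 4 of 7 were lower in cycling cells of 12-month and 2 of 7 of 3-month bleomycin. Among Sftpc-high cycling cells 1 and 1 were lower, with ratios of sums of 0.715 (0.706 to 0.725) and 1.02 (0.99 to 1.05). In the 1 such cell of 12-month PBS the ratio was 0.609 (0.484 to 0.758). Injury-activated and acute phase genes gave medians of -0.58 and 0.40. Lcn2, lipocalin 2, was at 4108 CPM in cycling cells of 12-month bleomycin, 2653 in 3-month bleomycin and 119.9 in 3-month PBS, against 4803, 1923 and 257 CPM in their other Sftpc-high cells. p53 response genes gave 0 of 14 higher and 3 lower in 12-month, and 3 of 13 higher and 2 lower in 3-month bleomycin.

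**Figure D5:**
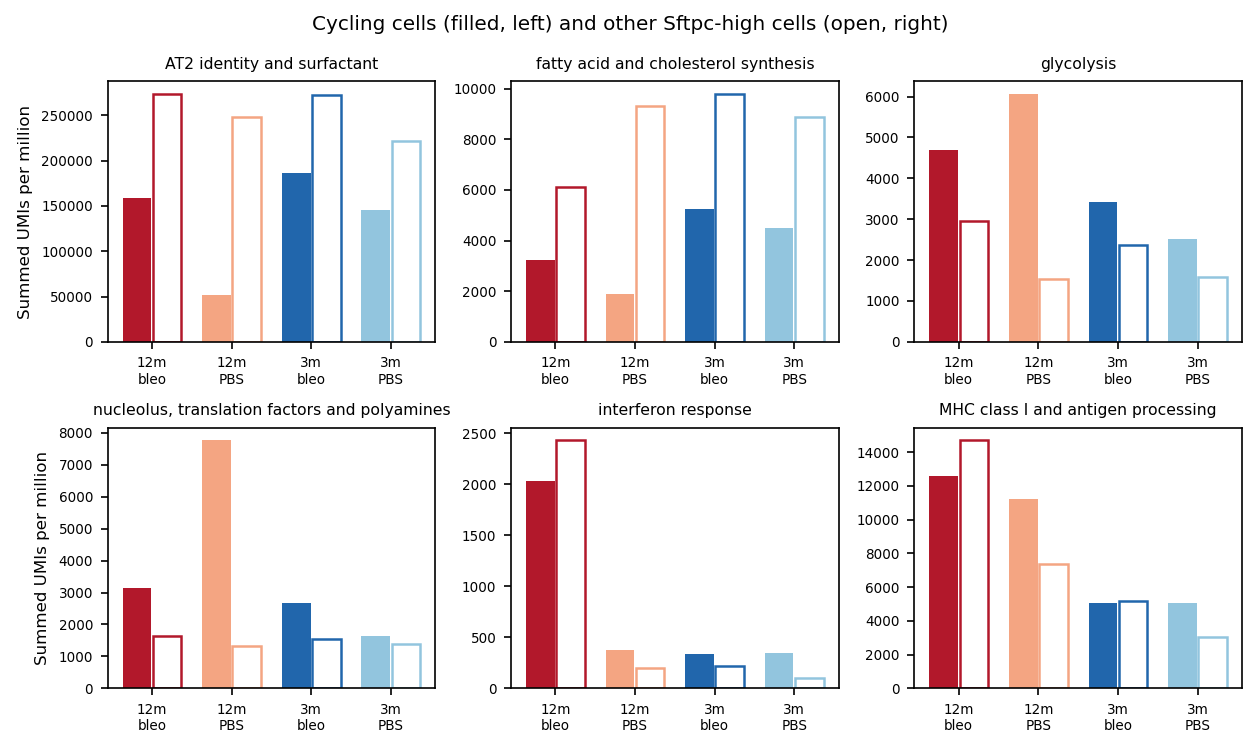
Summed CPM of 6 gene lists in cycling cells (filled bars, left of each pair) and other Sftpc-high cells (open bars, right) of each library, with axes from 0. The AT2 and lipid synthesis bars are lower in cycling cells of each library and the glycolysis and nucleolus bars higher, while the interferon bars of both classes are high in 12-month bleomycin; the 12-month PBS bars rest on 2 cells.

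Growth factor genes showed no common direction. Of growth factor receptor, ligand and FGF feedback genes 4 of 22 were higher and 4 lower in 12-month bleomycin, with a median of -0.03, and 6 of 21 were higher and 4 lower in 3-month bleomycin, with a median of -0.10. Over all genes 29.6% and 36.9% were higher and 14.1% and 14.3% lower in these libraries. Among Sftpc-high cycling cells 2 were higher and 6 lower in 12-month, and 4 higher and 3 lower in 3-month bleomycin. Etv5, an ERK-induced factor that maintains AT2 identity, was at 127 CPM in cycling cells of 12-month bleomycin, 217 in 3-month bleomycin and 247 in 3-month PBS, against 232, 328 and 325 CPM in their other Sftpc-high cells. Areg, amphiregulin, a ligand of the EGF receptor, was at 103 CPM in cycling cells of 12-month bleomycin, 63.8 in 3-month bleomycin and 112 in 3-month PBS, against 76.6, 85.9 and 48.5 CPM in their other Sftpc-high cells; the 3-month PBS value rests on 15 counts. Immediate early and heat shock genes gave 2 of 16 higher and 8 lower in 12-month bleomycin, with a median of -0.50, and 5 of 16 higher and 5 lower in 3-month bleomycin, with a median of -0.32. Among Sftpc-high cycling cells these were 2 higher and 5 lower in 12-month, and 6 and 6 in 3-month bleomycin. In 12-month bleomycin Fos was at 425 CPM in cycling and 696 CPM in other Sftpc-high cells, and the chaperone Hsp90aa1 at 491 and 162 CPM.

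Age was compared within cycling cells after bleomycin, with 115 cells at 12 months and 22 at 3 months. Among 2636 genes that reached 50 CPM, 79 stood 2-fold or more above their 3-month level at 12 months (3%) and 59 stood 2-fold or more below it (2.24%); in other Sftpc-high cells it was 56 (2.59%) and 10 (0.463%) of 2158. Interferon response genes were at 2033 CPM in 12-month and 334 CPM in 3-month cycling cells, a ratio of 6.08 (5.11 to 7.29), with 22 measured, 19 at least 1.5-fold higher and 2 lower, where 16.8% of all genes were higher and 20.4% lower. In other Sftpc-high cells they were at 2431 and 218 CPM at 12 and 3 months, a ratio of 11.1 (10.8 to 11.5); there 12.1% of all genes were 1.5-fold higher and 8.16% lower. B2m, the light chain of MHC class I, was 4.53-fold higher in 12-month cycling cells (4.11 to 5.03) and 4.51-fold in other Sftpc-high cells. Lipid synthesis genes were at 3218 CPM in 12-month and 5247 CPM in 3-month cycling cells, with ratios of 0.613 (0.584 to 0.645) in cycling and 0.625 (0.621 to 0.629) in other Sftpc-high cells. Both differences between ages were thus found in both cell classes.

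Replication genes were lower in the 12-month than in the 3-month cycling cells. The licensing list was at 509 CPM in 12-month and 819 CPM in 3-month cycling cells, a ratio of 0.622 (0.549 to 0.707), and at 93.9 and 79.3 CPM in other Sftpc-high cells of 12-month and 3-month mice, a ratio of 1.18 (1.11 to 1.26). The fork list was at 1930.3 CPM in 12-month and 2895 CPM in 3-month cycling cells, a ratio of 0.667 (0.624 to 0.713), with 0 of 34 genes at least 1.5-fold higher and 18 lower. Among Sftpc-high cycling cells the 2 lists were at 473 and 1823 CPM at 12 months, against 910.3 and 3293 CPM at 3 months. Pcna had a 12-month over 3-month ratio of 0.459 (0.363 to 0.587) in cycling cells, Mcm6 0.465 (0.325 to 0.685) and E2f1 0.239 (0.132 to 0.446). Kinetochore genes were at 991 CPM in 12-month and 1288 CPM in 3-month cycling cells, a ratio of 0.769 (0.698 to 0.849), and spindle genes at 4909 CPM in 12-month and 5125 CPM in 3-month cycling cells, a ratio of 0.958 (0.913 to 1.01). Cdkn1a had a ratio of 1.03 (0.791 to 1.37) in cycling cells, or 2.11 (1.47 to 3.24) without the 3-month cell with most of its counts, and 1.83 (1.75 to 1.91) in other Sftpc-high cells. The 12-month cells were deeper and could meet the criterion at lower levels of cell cycle genes; the part of depth was not tested. Each age is 1 library, and whether these differences exceed the spread between mice was not tested.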

How the data were processed

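The deposited files hold, for each library, a matrix of UMI counts per gene and cell barcode, as made by the authors; the submitters' processing notes name Cell Ranger, without a version, Seurat 3.2.2 and the mm10 build. Raw counts were used. Library totals were 36960380, 14214212, 23379893 and 11381566 counts in 12-month bleomycin, 12-month PBS, 3-month bleomycin and 3-month PBS. The cycling cells, gene lists and marker lists were chosen with earlier results of these data known.

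Counts were summed over cycling and other Sftpc-high cells of a library and scaled to CPM. Ratios were taken after adding 0.5 count to each sum, with exact conditional binomial intervals, and shares have exact Clopper-Pearson intervals, both at 95%. Genes at 50 CPM or more in either class were counted at 2-fold, and lists at 1.5-fold among genes with 10 or more counts. Genes named are the 12 highest and 12 lowest ratios in the library with most cycling cells whose interval leaves out 1, without the 12 genes of the criterion, Sftpc, mitochondrial, ribosomal, haemoglobin, immunoglobulin and predicted genes; up to 6 genes of each list with the highest CPM in cycling cells; and the 9 cell cycle genes. Foxj1, Ccna1, Retnlg and Cldn4 were named outside this rule. Of these, Foxj1, Ccna1 and Retnlg were among the genes that differed most between cycling cells below and above 5% Sftpc. Marker lists were counted as present with 2 or more genes detected. Called doublets (Scrublet in scanpy 1.11.5, 0.8% per 1000 barcodes) were kept, and left out in an alternative. Other alternatives changed the criterion, depth, cell filters, scaling, comparison cells and minimum level. Python 3.11.15, numpy 2.4.6, scipy 1.17.1, pandas 2.3.3 and matplotlib 3.10.9 were used, and the ratio calculation was tested on simulated data.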

Additional observations from a re-analysis of the deposited data

How the results depend on the processing

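The 12-month over 3-month ratio of cycling shares in PBS mice was 0 when cells were thinned to 3000 or to 2000 UMIs or cycling cells had to lack all 3 leukocyte genes, also with carriers left out of the denominator, since no cycling cell was then left in 12-month PBS, and for the same reason the bleomycin over PBS ratio at 12 months could not be given there. After bleomycin that age ratio was 2.07 with cells thinned to 2000 UMIs and 2.14 with carriers of leukocyte genes not called cycling but kept in the denominator, against 4.58; with carriers left out of both, a setting chosen after seeing the data, it was 3.79; with 3 or 5 or more cell cycle genes, another cell filter or no called doublets, the 4 ratios lay within the intervals of the values reported. Numbers of genes at least 2-fold higher and lower in cycling cells of 12-month bleomycin were 162 and 23 in Sftpc-high cycling cells, 166 and 100 scaled without the 20 most abundant genes, 132 and 23 at a minimum of 100 CPM, and 2095 and 772 with no minimum beyond 10 counts, the last 2 by construction from the genes counted; 63 were lower with cells thinned to 3000 UMIs. The causes were otherwise not tested. Log2 ratios that turned were Col1a1 (-0.69), Col1a2 (-0.40), S100a6 (-0.12) and Laptm5 (-0.56) in Sftpc-high cycling cells, Col1a1 (-0.85) and Myc (-2.02) without cells carrying other cell type markers, and Laptm5 (-1.27) against other cells with 1% Sftpc or more. Of the other values under these alternatives, for lists and single genes, 1985 kept within their interval or within 0.25 on the log2 scale and 682 moved by more. With 22 and 18 cycling cells in the 3-month libraries and 2 in 12-month PBS, counts limit each value there. No paired analysis was possible because each group is 1 library.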
